A study of Mus musculus with 6 samples.

Results

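The genes of sterol and fatty acid synthesis were followed in mouse embryonic stem cells in which the chromatin remodeller Chd8 was reduced by a short hairpin RNA. The set was a list of 34 gene names: 5 regulators of the SREBP transcription factors, the sterol carrier Stard4, 8 enzymes of the mevalonate and isoprenoid steps, 12 enzymes from squalene to cholesterol, and 8 enzymes of fatty acid synthesis. A member was any probe of the bead array whose gene symbol in the platform annotation was on the list. No measured value entered that match, but the list itself was chosen with earlier results of these data known. There were 53 such probes for 31 genes, of 45281 probes and 19057 named genes on the array. No probe was named for Acat2, Hmgcs1 or Fdft1 in the annotation used here, so these enzymes were not analysed here. Probes entered the test if at least 3 of the 6 arrays gave them a detection p-value under 0.01, which left 37 probes of 26 members.

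Cells take up cholesterol from lipoproteins and also build it from acetyl-CoA through mevalonate, farnesyl diphosphate, squalene and lanosterol. The SREBP factors are made as membrane proteins of the endoplasmic reticulum, where Scap escorts them to the Golgi for cleavage when sterols are low, and the Insig proteins hold Scap back when sterols are high. Srebf2 encodes the factor best known for driving genes of cholesterol synthesis, and Srebf1 encodes the factors best known for genes of fatty acid synthesis. Their targets tend to rise and fall together, because they share binding sites for SREBP and for the CCAAT-binding factor NF-Y. Dividing stem cells use both pathways to build membranes.

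Per the labels, the cells were cultured with 15% serum and leukemia inhibitory factor on mouse embryonic fibroblasts whose division had been stopped with mitomycin C. All 6 samples had been electroporated with a pHYPER hairpin vector and were selected with puromycin from 24 h after transfection for 48 h. The 3 control samples are labelled as control, under titles that read "control, Chd8", with no word on what their vector carried. The 3 shChd8 samples carried a hairpin against Chd8, and the labels name 1 hairpin target with no second sequence and no rescue, so effects of the hairpin on other transcripts and effects of less Chd8 cannot be told apart. All 6 arrays lay on 1 slide with the groups at separate positions, and effects of the group and of the position cannot be told apart either.

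Chd8 was lower in shChd8 cells, at 9.90, 9.97 and 10.02 in the control arrays and 8.71, 8.64 and 8.36 in the shChd8 arrays, on the scale of log2 intensity after background correction and quantile normalization. Its log2 change was -1.39 (SE 0.15, limma adjusted p = 0.00907), which left 38.1% of the control level. Between 16482 and 17440 probes were detected per array. Of the markers of the labelled cell type, Pou5f1, Nanog, Sox2 and Zfp42 were detected on all 6 arrays, with 0 of 10 stem cell markers called by limma, also 0 at an unadjusted p under 0.05. Markers of the feeder fibroblasts were higher in the shChd8 arrays. Of 28 listed markers 22 were tested, 21 of those had a log2 change above 0, and 2 rose, Fbln2 and Tagln, where 2.12% of all tested genes rose. At an unadjusted p under 0.05, 11 of the 22 were higher, where 13.4% of all genes were, and for 9 every shChd8 array was above every control array, where this held for 14.6% of all genes. Their summed intensity ranged from 9044 to 14938 in the control arrays and from 18100 to 34801 in the shChd8 arrays. Of the defining fibroblast markers, Col1a1 had a log2 change of 1.42 (limma adjusted p = 0.136), Col1a2 one of 0.57 and Thy1 one of -0.02, while Col3a1 was not tested because it was detected on too few arrays. In bulk RNA, fewer cells of a type and less RNA per cell cannot be told apart.

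In shChd8 cells 12 of 14 tested sterol enzymes had a log2 change below 0 on the brightest probe, where 51.8% of all tested genes did. The sterol steps had 20 listed enzymes, so part of the pathway was not tested. Of the members 2 fell, 1 sterol enzyme and 1 SREBP regulator. Dhcr7, the reductase of the last step to cholesterol, fell to 41.3% of its control level, and Srebf2 fell to 54.0% on 1 of its 2 probes. A gene is called here when at least 1 of its probes has an adjusted p under 0.05 over all 16732 tested probes. With this rule 2 of 26 tested members fell, where 3.05% of all 9711 tested genes fell. No member rose, where 2.12% of all genes did, and at an unadjusted p under 0.05 on the brightest probe 11 members were lower and 0 higher, where 14% and 13.4% of all genes were. When the brightest probe alone decided the call, 1 member fell and 0 rose, where 2.61% and 1.7% of all genes did. Counted by probes, 2 of 37 fell and 0 rose, where 2.12% and 1.55% of all tested probes did. The arrays of the groups did not overlap for 12 members with shChd8 lower and for 0 with shChd8 higher, where this held for 18.2% and 14.6% of all genes. On the brightest probe of each gene, 23 of 26 members had a log2 change below 0, or 18 with median scaling, which shifts all genes upward by a median of 0.18. The median over members was -0.30, beside -0.02 over all tested genes, and the range ran from -1.27 for Dhcr7 to 0.14 for Elovl6. The members' median change was 0.21 to 0.40 lower than that of all genes in each of the 18 alternative fits, values that come from the same 6 arrays.

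**Figure D1:**
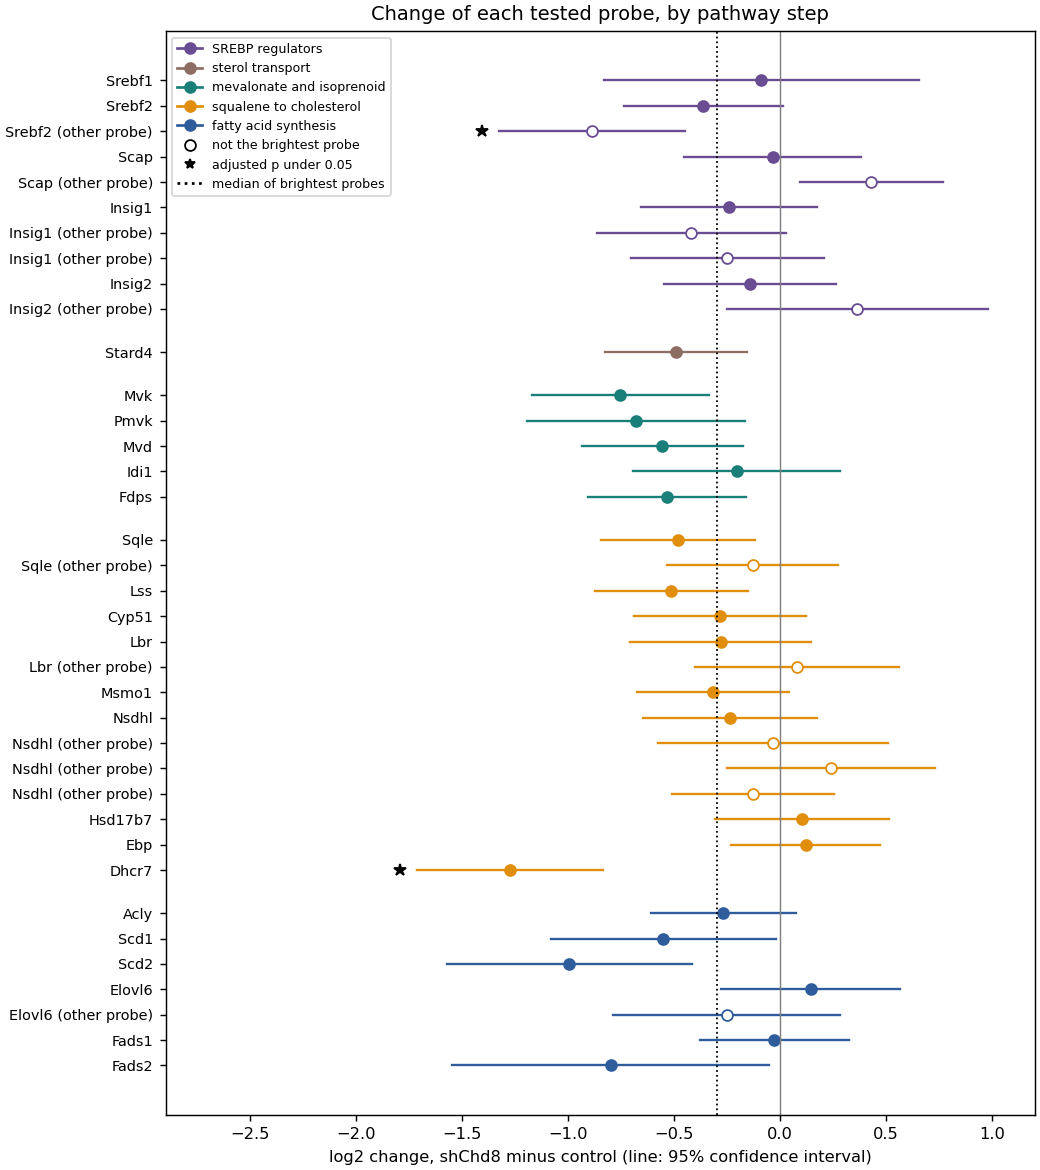
Log2 change of each of the 37 tested probes (points, filled for the brightest probe of a gene) with its 95% confidence interval (lines), on a horizontal axis of shChd8 minus control, ordered by pathway step from the SREBP regulators to fatty acid synthesis; the dotted line is the members' median of -0.30. All 5 mevalonate and isoprenoid enzymes and most steps from squalene onward lie left of 0, and stars mark the called probes, 1 of Srebf2 and that of Dhcr7.

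**Figure D2:**
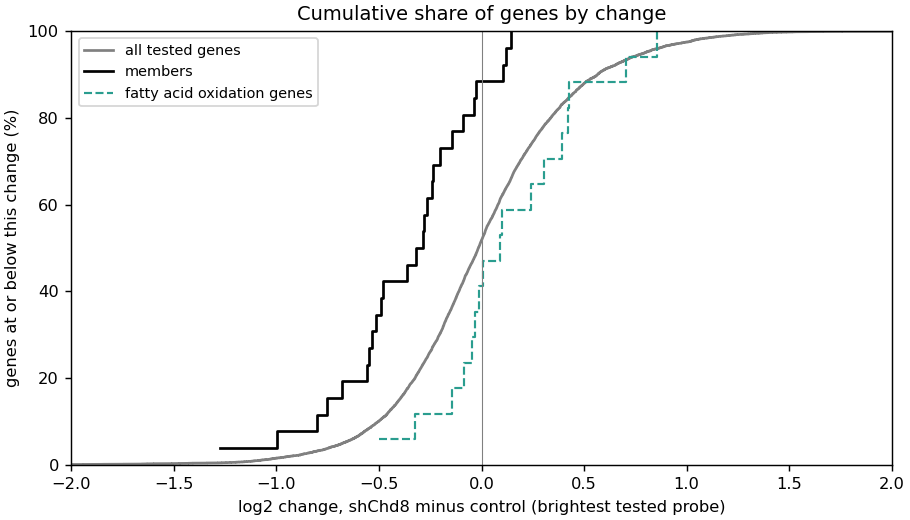
Cumulative percentage of genes (vertical axis) by log2 change of their brightest probe (horizontal axis) for the 26 tested members, the 17 tested fatty acid oxidation genes and all 9711 tested genes. The member curve lies to the left of the curve of all genes and reaches 88.5% at a change of 0, where all genes reach 51.8%.

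Among the regulators, Srebf2 fell on 1 probe while the other members of the group were not called. The called Srebf2 probe (ILMN_1234082, annotated to the cDNA AK032847) read 7.36, 7.26 and 7.74 in the control arrays and 6.56, 6.81 and 6.33 in the shChd8 arrays. Every shChd8 array was below every control array, and the log2 change was -0.89 (SE 0.19, 95% confidence interval -1.33 to -0.45, limma adjusted p = 0.0459). The brighter Srebf2 probe (ILMN_1223598, annotated to NM_033218) read 8.13, 8.19 and 8.38 in control and 7.65, 8.05 and 7.91 in shChd8 arrays. The groups did not overlap on that probe either, but its log2 change of -0.36 (SE 0.16, limma adjusted p = 0.209) was not called. The probes of this gene therefore differ in the size of the change, and the annotation gives no sequence for them. The Srebf2 call held in 8 of 18 alternative fits. It was lost without control replicate 1 (adjusted p = 0.107), without control replicate 3 (0.123), and without shChd8 replicate 1 (0.144), replicate 2 (0.105) or replicate 3 (0.0724). It was also lost with median scaling (adjusted p = 0.0692), without a filter (0.0794), with the looser filter (0.0513) and in the unmoderated test (0.148). With each array's feeder marker median as an added term, the probe's log2 change was -0.85 (adjusted p = 0.543) and that of the brighter Srebf2 probe was -0.09.

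Scap, the escort of SREBP, had a log2 change of -0.03 (SE 0.18) on its main probe, with a confidence interval from -0.45 to 0.38. A further Scap probe was not well above background in any control array but was detected in all 3 shChd8 arrays. It was at least 1.05-fold higher there and was not called (limma adjusted p = 0.119). This probe met the detection filter only through the shChd8 arrays, so its direction follows from that selection and shows no rise. The retention factor Insig1, itself a well-known SREBP target, had -0.24, -0.42 and -0.25 on its 3 tested probes, without a call, and its groups overlapped on each of them. Insig2, which is known for being less dependent on SREBP, had -0.14 on its brighter probe and 0.36 on the other, so its direction differed between probes. Srebf1 was faint and varied widely, from 4.94 to 5.77 in control and from 4.58 to 5.66 in shChd8 arrays, with a log2 change of -0.09 (SE 0.33). Of the 5 regulators, 1, Srebf2, had groups that did not overlap on the brightest probe. This held with shChd8 lower for 18.2% of all tested genes. The difference between Srebf2 and the other regulators was not tested.

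The promoter of Srebf2 is shown because this gene is known to be under control of its own product. In RefSeq (GRCm38.p6) the window from 250 bases before to 50 bases after the start lies at chr15:82147019-82147318 on the plus strand. Capitals mark CCAAT boxes on either strand (ATTGG on the opposite one) and runs that match the sterol regulatory element TCACNCCAC on either strand with at most 1 mismatch.
Srebf2 promoter: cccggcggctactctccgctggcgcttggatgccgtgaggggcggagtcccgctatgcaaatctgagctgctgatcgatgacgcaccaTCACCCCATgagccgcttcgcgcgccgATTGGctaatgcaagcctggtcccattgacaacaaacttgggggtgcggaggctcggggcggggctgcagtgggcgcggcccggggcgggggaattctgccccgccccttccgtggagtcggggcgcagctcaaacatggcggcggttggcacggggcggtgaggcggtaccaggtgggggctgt
The first capital run, at -162 from the start, is such a near match to the sterol regulatory element, and the second, at -135, is a CCAAT box on the opposite strand. Near matches of this kind are common, at 24.2% of all 32851 promoters in the table and 31.4% of the 35 members' promoters, and the exact element was in 1.24% of all promoters and in 1 of the members' promoters, that of Hmgcs1. The 35 windows came from 27 of the 34 members, and some genes gave several windows. No window was given for Stard4, Fdps, Fdft1, Sqle, Scd1, Scd2 or Fads1. CCAAT boxes were in 65.7% of the members' promoters and in 38.2% of those of protein-coding genes, and GC boxes (GGGCGG, either strand) in 74.3% and 46.2%. Counted by gene, 22 of the 27 held a CCAAT box and 22 a GC box. The members' promoters had a median GC content of 62.3%, beside 56.3% for protein-coding genes. These matches describe letters in a window and no binding was measured.

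The enzymes that turn mevalonate into farnesyl diphosphate lay lower together, with a median log2 change of -0.56. Of these, 5 of 5 tested members were below 0, where 51.8% of all tested genes were. For 4 of 5 the groups did not overlap, where this held with shChd8 lower for 18.2% of all genes. None was called by limma, and 4 of 5 were lower at an unadjusted p under 0.05, where 14% of all genes were. Mvk, which phosphorylates mevalonate, read 5.51, 5.99 and 5.99 in control and 4.90, 5.20 and 5.12 in shChd8 arrays. Its lowest control array was above its highest shChd8 array. It was detected on 3 control and 2 shChd8 arrays, and its log2 change was -0.75 (SE 0.18, limma adjusted p = 0.0567). Pmvk, the next kinase, read 7.33, 6.85 and 7.58 in control and 6.29, 6.60 and 6.83 in shChd8 arrays, with a log2 change of -0.68 (SE 0.23, adjusted p = 0.11). Control replicate 2 and shChd8 replicate 3 came close to each other, so these groups were barely apart. With the feeder median as a covariate the log2 change was -0.14 for Pmvk and -0.43 for Mvk.

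Mvd, the decarboxylase that makes isopentenyl diphosphate, read 8.05, 7.93 and 8.38 in control and 7.67, 7.52 and 7.50 in shChd8 arrays. The log2 change was -0.56 (SE 0.17, limma adjusted p = 0.0875). Fdps, which joins isoprene units into farnesyl diphosphate, read 11.27, 11.08 and 11.54 in control and 10.73, 10.83 and 10.73 in shChd8 arrays. Its shChd8 arrays lay close together below all controls, and its log2 change was -0.54 (SE 0.16, adjusted p = 0.0926). Idi1, the isomerase of isopentenyl diphosphate, overlapped between the groups, with a log2 change of -0.20 and a confidence interval from -0.69 to 0.28. Ggps1, which makes the longer geranylgeranyl diphosphate, was detected on no array by either of its probes and was not tested.

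The promoter of Mvk is shown for its CCAAT boxes, of which a script found 5 (capitals, both strands; no near match to the sterol regulatory element). It lies at chr5:114444019-114444318 on the plus strand of GRCm38.p6, per RefSeq.
Mvk promoter: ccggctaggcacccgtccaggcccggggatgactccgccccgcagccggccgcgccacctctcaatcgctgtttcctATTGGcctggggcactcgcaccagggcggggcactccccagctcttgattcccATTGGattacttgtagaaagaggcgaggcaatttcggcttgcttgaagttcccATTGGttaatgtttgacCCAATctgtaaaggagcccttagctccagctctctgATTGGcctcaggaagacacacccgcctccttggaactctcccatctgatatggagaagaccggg
Mmab, an enzyme of cobalamin metabolism, is the neighbour of Mvk in the RefSeq assembly. It belongs to the list of other SREBP target genes described below and was picked here after its values were seen. Its brightest probe had a log2 change of 0.27 (limma adjusted p = 0.246), and a second probe had 0.33 (adjusted p = 0.183). On both, every shChd8 array was above every control array, which held on the brightest probe for 14.6% of all tested genes. A further Mmab probe, detected on 3 arrays, had -0.20 (adjusted p = 0.738), so the probes of this gene disagree in direction and none was called.

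From squalene to cholesterol, 1 of 9 tested enzymes fell, where 3.05% of all tested genes did. Of the 9, 7 were below 0, where 51.8% of all genes were, and the median log2 change was -0.28. Dhcr7 (ILMN_2660471) read 7.14, 6.84 and 7.50 in control and 6.00, 5.88 and 5.77 in shChd8 arrays. The groups were separated by a wide gap, and Dhcr7 fell by 1.27 on the log2 scale (SE 0.19, 95% confidence interval -1.71 to -0.83, limma adjusted p = 0.0219), rank 44 from the lowest among the 9711 tested genes. By exact permutation (two-sided) p was 0.1, and 3 arrays against 3 cannot give less. The call held in 12 of 18 alternative fits. It was lost without control replicate 1 (adjusted p = 0.0739), without control replicate 3 (0.0682) and without either replicate 1 (0.0849) or replicate 2 (0.0871) of the shChd8 group. In the unmoderated test the call was lost too (adjusted p = 0.105). With each array's feeder median added as a covariate, the log2 change of Dhcr7 was -1.20 (adjusted p = 0.444), a fit in which limma called 0 genes.

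RefSeq gives 3 starts for Dhcr7. Of these, the one at chr7:143829964-143830263 (plus strand, GRCm38.p6) is shown, since it is the one that holds CCAAT boxes, 2 in number and in capitals.
Dhcr7 promoter: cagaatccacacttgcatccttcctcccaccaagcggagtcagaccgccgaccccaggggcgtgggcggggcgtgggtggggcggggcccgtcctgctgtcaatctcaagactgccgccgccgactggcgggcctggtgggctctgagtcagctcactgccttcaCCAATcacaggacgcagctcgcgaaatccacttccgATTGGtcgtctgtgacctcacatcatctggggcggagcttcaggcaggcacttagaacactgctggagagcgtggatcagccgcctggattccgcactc
The window of another Dhcr7 start, at chr7:143823149-143823448, held 1 near match to the sterol regulatory element and no CCAAT box, and that of the remaining start, at chr7:143822917-143823216, held neither.

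Of the enzymes that make and close the sterol skeleton, Sqle, the squalene epoxidase, read 10.11, 10.03 and 10.39 in control and 9.61, 9.82 and 9.66 in shChd8 arrays on its brightest probe. The groups were apart, with a log2 change of -0.48 (SE 0.16, limma adjusted p = 0.11), whereas on its other tested probe they overlapped at -0.13. Lss, which closes the rings to lanosterol, read 8.71, 8.68 and 9.05 in control and 8.23, 8.34 and 8.34 in shChd8 arrays, a log2 change of -0.51 (SE 0.16, adjusted p = 0.0936). Its shChd8 arrays lay close together below all controls. With the feeder median as a covariate the log2 change was -0.27 for Lss and -0.30 for Sqle. Msmo1, the methylsterol oxidase formerly named Sc4mol, had -0.32 (SE 0.16) and barely separated groups, with 9.17 as the lowest control and 9.16 as the highest shChd8 value.

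For 5 further enzymes the groups overlapped on the brightest probe and none was called. Cyp51, the lanosterol demethylase, had a log2 change of -0.28 (SE 0.18), and Lbr, a sterol reductase that also anchors chromatin at the nuclear envelope, had -0.28 (SE 0.19) on its brightest probe and 0.08 on another. Nsdhl, a dehydrogenase of the demethylation complex, had 4 tested probes between -0.24 and 0.24. Hsd17b7, the ketoreductase of that complex, had 0.10 and Ebp, the sterol isomerase, 0.12. The confidence interval of Ebp, from -0.23 to 0.47, leaves out a fall of the size of Dhcr7, as does that of Hsd17b7, from -0.31 to 0.51. The differences between these enzymes and Dhcr7 were not tested. Tm7sf2, a second sterol reductase, was detected on no array, and Sc5d, the desaturase before Dhcr7, was detected on 0 control and 2 shChd8 arrays, so neither was tested.

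**Figure D3:**
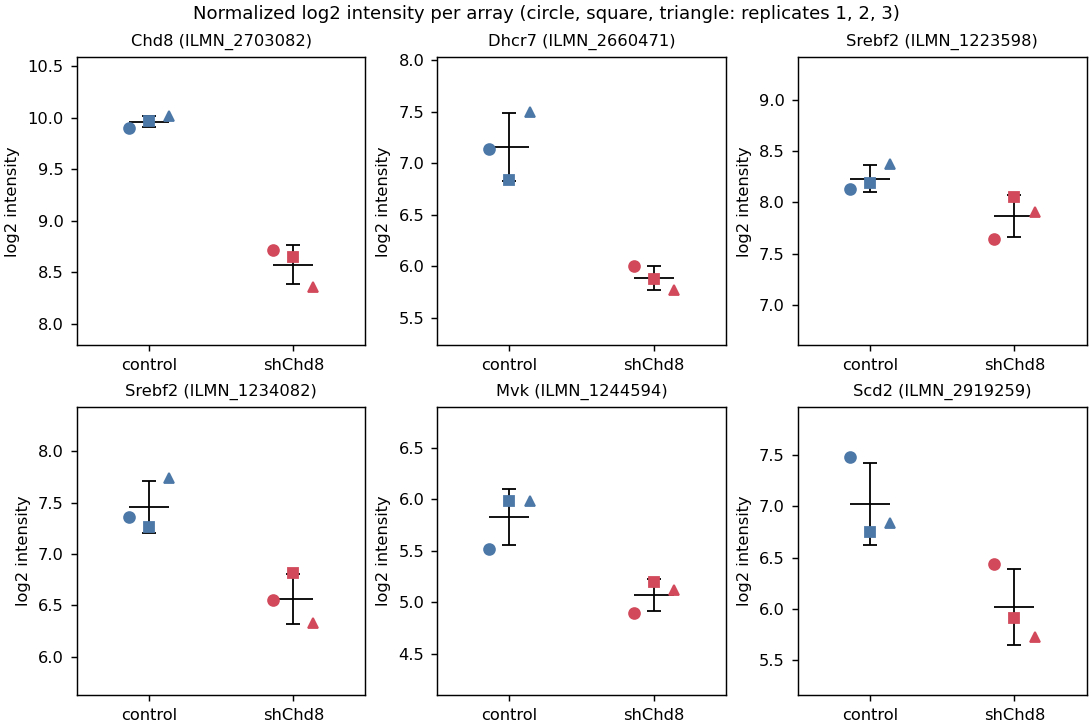
Normalized log2 intensity (vertical axis) of Chd8, Dhcr7, both Srebf2 probes, Mvk and Scd2 on each control and shChd8 array. Points are arrays, the wide bar is the group mean and the whiskers are 1 SD (n = 3), and in each panel all 3 shChd8 arrays lie below all 3 control arrays.

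Stard4, a soluble carrier that moves cholesterol between membranes and is a known SREBP target, read 7.77, 7.70 and 7.98 in control and 7.28, 7.37 and 7.32 in shChd8 arrays. The shChd8 arrays lay close together and below all controls. The log2 change was -0.49 (SE 0.15, limma adjusted p = 0.0877), which is not a call.

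In fatty acid synthesis the log2 changes ran from -0.996 for Scd2 to 0.14 for Elovl6. No member of this arm was called by limma, and the median log2 change was -0.41. At an unadjusted p under 0.05, 3 of 6 tested were lower, where 14% of all tested genes were. Scd2, a stearoyl-CoA desaturase known from brain and early development, read 7.48, 6.75 and 6.83 in control and 6.44, 5.91 and 5.72 in shChd8 arrays. The groups were apart, and the log2 change was -0.996 (SE 0.25, limma adjusted p = 0.0625), the lowest of any member after Dhcr7. Scd2 was called in 7 of the 18 alternative fits, among them those with array weights (log2 change -1.09, adjusted p = 0.0354) and with the filter of detection on all 6 arrays (adjusted p = 0.0443). Scd1, the related desaturase best known from liver and fat, read 8.30, 8.53 and 8.05 in control and 7.58, 8.21 and 7.43 in shChd8 arrays, where shChd8 replicate 2 overlapped with the controls. Its log2 change was -0.55 (SE 0.23, adjusted p = 0.18). The Scd genes are close relatives, and their probes may bind each other's RNA, which was not tested.

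Fads2, the first desaturase of polyunsaturated fatty acids, had a log2 change of -0.80 (SE 0.33, limma adjusted p = 0.172), but it was detected on only 2 control and 1 shChd8 arrays. It read 5.95, 4.97 and 6.35 in control and 4.85, 4.77 and 5.25 in shChd8 arrays, so control replicate 2 lay among the shChd8 arrays. Fads2 was tested in 14 alternative fits and called in 1. That fit left out control replicate 2, and the log2 change of Fads2 there was -1.22 (adjusted p = 0.0314). With the feeder median as a covariate its log2 change was -0.19. Fads1, its partner in the pathway, had a log2 change of -0.03 with a confidence interval from -0.38 to 0.32. Acly, which supplies acetyl-CoA from citrate, read 12.44, 12.72 and 12.74 in control and 12.33, 12.34 and 12.43 in shChd8 arrays, a log2 change of -0.27 (SE 0.15) with groups that barely parted. Elovl6, the elongase of palmitate, had 0.14 on its brightest probe and -0.25 on another. Acaca, the carboxylase of the committed step, was detected on no array, and Fasn, the synthase itself, on 0 control and 2 shChd8 arrays, where it read 4.84, 5.24 and 5.24 beside 4.53, 4.76 and 4.90 in control. These 2 central enzymes were therefore not tested, and the arm rests on its modifying enzymes and Acly.

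**Figure D4:**
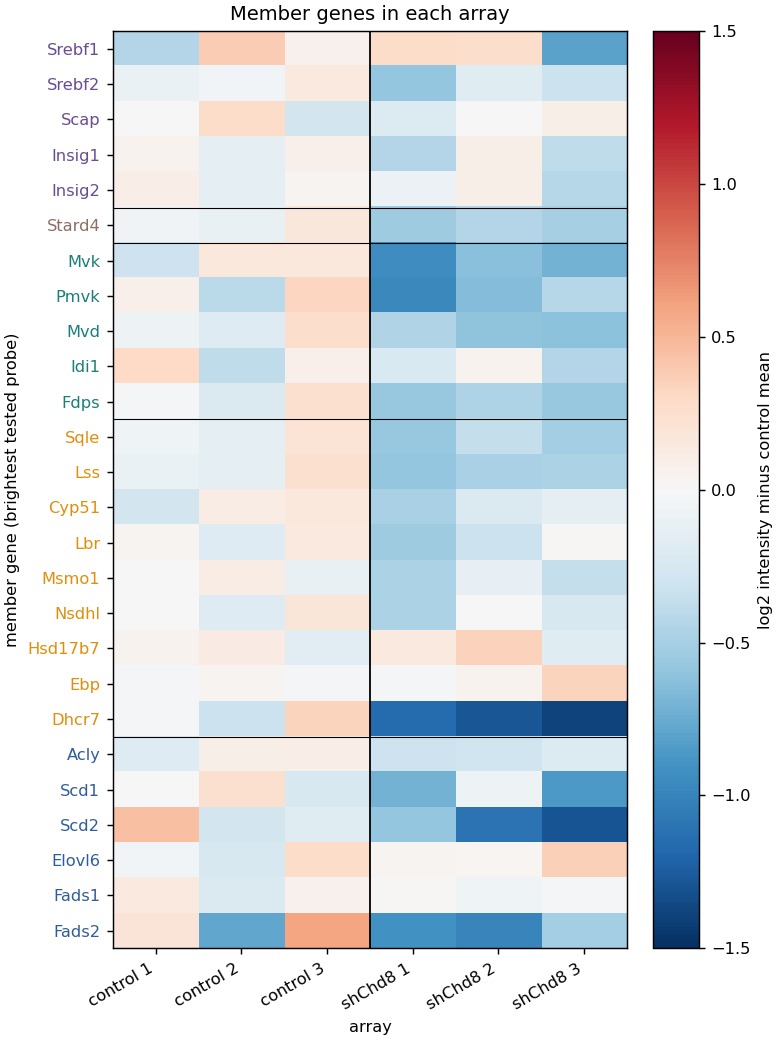
Log2 intensity of each tested member (rows, brightest probe, grouped by pathway step) on each array (columns) after subtraction of its control mean, with blue for lower and red for higher. The shChd8 columns are blue for most rows from Stard4 to Lss and darkest for Dhcr7, while Hsd17b7, Ebp, Elovl6 and Fads1 stay pale.

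The members varied together between arrays of the same group. Control replicate 3 was the highest control array for 16 of 26 members, or 61.5%, beside 34.02% of all tested genes, and control replicate 2 was the lowest for 16 of 26, beside 37.6%. In the shChd8 group replicate 1 was the lowest for 14 of 26 members, or 53.8%, beside 32.7% of all genes. Per array, the members' median deviation from their own 6-array means stood at 0.17, 0.09 and 0.29 for the controls and at -0.31, -0.06 and -0.23 for the shChd8 arrays. Every shChd8 array was below every control array. For the mevalonate and isoprenoid steps alone the medians were 0.25, 0.05 and 0.53 in control and -0.30, -0.25 and -0.33 in shChd8 arrays, and for the regulators they overlapped, at 0.08, 0.14 and 0.12 against -0.19, 0.16 and -0.26.

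The same medians for feeder fibroblast markers were -0.17, -0.36 and -0.83 in control and 0.93, 0.52 and 0.00 in shChd8 arrays. The array with the lowest marker median, control replicate 3, had the highest member median. The array with the highest marker median, shChd8 replicate 1, had the lowest member median. Within each group the remaining arrays ran the other way. Control replicate 1 was above control replicate 2 in both medians, and shChd8 replicate 2 was above shChd8 replicate 3 in both. In shChd8 replicate 3 the marker median was near 0, still above the highest control value of -0.17, and the member median was -0.23. The marker medians did not overlap between the groups, so effects of the group and of feeder content cannot be told apart. With the feeder median as a covariate, the member median was -0.26, beside -0.01 over all tested genes. In that fit 21 of 26 members were below 0, and limma called 0 members and 0 of all genes. At an unadjusted p under 0.05, 2 members were lower and 0 higher, where 860 of 9711 genes were lower or higher. Single members differed in both directions from their values without the covariate. The log2 change of Acly was -0.08 in that fit, whereas it was -1.70 for Scd2, -0.85 for Scd1, -0.39 for Idi1, -0.38 for Insig2 and -0.66 for Srebf1. It was 0.55 for Elovl6 and 0.35 for Ebp. Its sign was the opposite for Cyp51 (0.10), Lbr (0.17), Nsdhl (0.0086) and Hsd17b7 (-0.25). Stem cell markers had medians of 0.02, -0.03 and 0.13 in control and -0.16, -0.06 and 0.21 in shChd8 arrays, which overlapped.

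**Figure D5:**
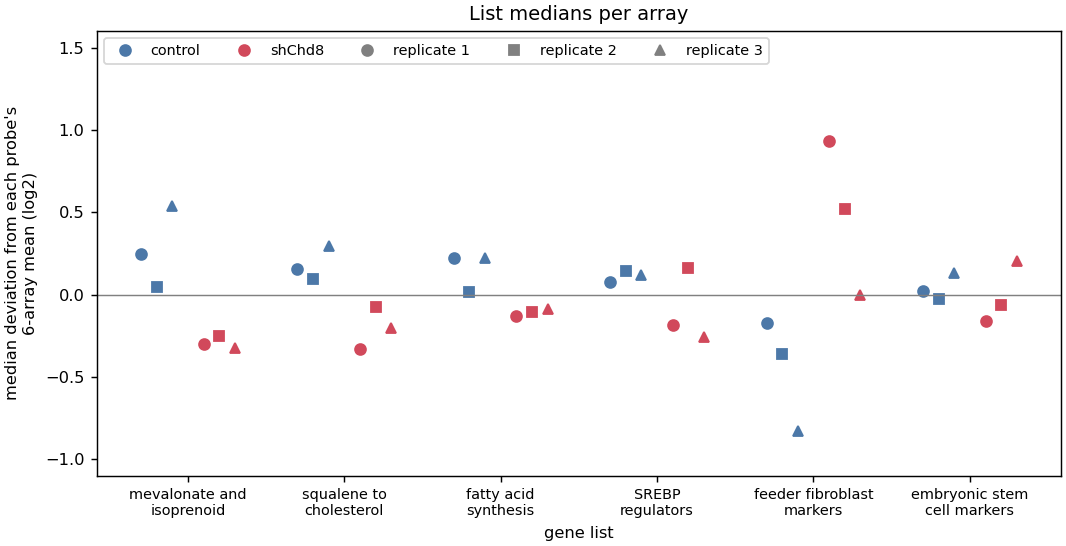
Median deviation of each gene list from its probes' 6-array means (vertical axis, log2) for each control and shChd8 array, with 1 point per array and the marker shape giving the replicate. The mevalonate, squalene to cholesterol and fatty acid lists lie lower in all 3 shChd8 arrays, the feeder fibroblast markers lie higher, and the SREBP regulators and stem cell markers overlap.

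Other lipid genes were read from 6 further lists, and their difference from the members was not tested. Of all tested genes, 14% were lower and 13.4% higher at an unadjusted p under 0.05 on the brightest probe. Among 12 tested of 14 other SREBP target genes, the median log2 change was -0.04. Of these 12, 1 rose and 0 fell, where 2.12% and 3.05% of all genes did. The riser was Lpin1, a phosphatidate phosphatase of glycerolipid synthesis. Its brightest probe read 6.26, 6.74 and 6.45 in control and 7.60, 7.30 and 7.20 in shChd8 arrays, and Lpin1 rose on that probe by 0.88 (SE 0.18, limma adjusted p = 0.042) and on another by 0.94 (adjusted p = 0.0219). Lpin1 thus lay in the opposite direction to Dhcr7 with both groups apart.

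Genes that act on SREBP processing and sterol sensing had a median of 0.17 over 11 tested of 14, with none called by limma and 2 higher at an unadjusted p under 0.05. These were Ufd1, a cofactor in protein retrotranslocation, at 0.61 (limma adjusted p = 0.0936) and Sar1b, a coat GTPase of vesicles, at 0.38 (adjusted p = 0.182). The isoprenoid branch beyond farnesyl diphosphate had a median of -0.16 over 9 tested of 11, with none called and 4 lower and 1 higher at an unadjusted p under 0.05. Coq2, the prenyltransferase of ubiquinone synthesis, had -0.56 (adjusted p = 0.0689) and Rabggta, a subunit of the Rab prenyltransferase, -0.52 (adjusted p = 0.125). In both, every shChd8 array was below every control array.

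LXR targets and sterol efflux genes had a median of 0.08 over 7 tested of 14 with none called and 1 higher at an unadjusted p under 0.05. On the brightest probes the lowest p values were those of Stard3, a late endosomal sterol carrier, at 0.40 (limma adjusted p = 0.188) and of Ch25h, an oxysterol-producing hydroxylase, at 1.00 (adjusted p = 0.312). Further genes of fatty acid synthesis and elongation split evenly, with 6 of 12 tested below 0, none called and 5 lower and 1 higher at an unadjusted p under 0.05. Elovl4, an elongase of very long chains, had -0.59 (adjusted p = 0.0753) and Elovl1 0.73 (adjusted p = 0.11). Fatty acid oxidation genes had a median of 0.09 over 17 tested of 19 with none called, 1 lower and 4 higher at an unadjusted p under 0.05. Cpt1c, a carnitine palmitoyltransferase of brain, had 0.70 (adjusted p = 0.0625) and the dehydrogenase Acadl 0.85 (adjusted p = 0.0754).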

How the data were processed

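RNA from 6 samples, 3 per group, was hybridised to 1 Illumina bead array each. Per the file headers, the deposited table gives each probe's non-normalized linear intensity and its detection p-value per array. The submitters' processing notes name GenomeStudio without a version. A second deposited table holds intensity that the authors had normalized. From the non-normalized intensity, limma 3.58.1 in R 4.3.3 was used for background correction and quantile normalization (neqc, offset 16), lmFit and eBayes, two-sided, with Benjamini-Hochberg adjustment over all tested probes. Values are log2 intensity. A fold marked "at least" sets a group with no detected array at the lowest detected value of each array. Of 45281 probes, 34885 had 1 symbol, 18 several and 10378 none. For 34807 probes the gene identifier was found in RefSeq (GRCm38.p6) and the symbol given there was used, whether or not it differed. The annotation gives no probe coordinates or sequences. The fit was tested on simulated data.

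Members, gene lists, tests and named genes were chosen with earlier results of these data known. All members were named. From the other lists, called genes were named, or otherwise the 2 with the lowest p. Mmab was named outside this rule. The labels do not say that samples came from separate cultures, so p-values measure only how these samples spread, and that spread may be technical. The number of arrays limits the precision: the smallest called log2 change was 0.61 in size. Replicate numbers follow sample order and pair nothing. Alternatives changed background correction, scaling, filter, test, array weights, a feeder covariate and the arrays used.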

Additional observations from a re-analysis of the deposited data

How the results depend on the processing

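The number of members that fell was 2 of 26, where 3.05% of all tested genes fell. Percentages in brackets give that share for each fit. The number was 7 with the authors' deposited normalized table (7.2%), with normexp (6.65%) and with uncorrected background (7.2%). With a robust trend it was 6 (7.39%) and with a trend 5 (6.89%). It was 1 with median scaling (1.81%), without a filter (0.892%), with the looser filter (1.63%) and when the brightest probe decided the call (2.61%). It was 0 in the unmoderated test (0.144%) and with the feeder covariate (0%). At an unadjusted p under 0.05, 8 members were lower and 0 higher in the unmoderated test. Of all 9711 genes, 2237 were lower or higher at that limit in the same test. With the feeder covariate 2 members were lower and 0 higher at that limit, where 860 of 9711 genes were lower or higher. Leaving out 1 array gave 0 to 3 members that fell, where 0.148% to 3.34% of all genes fell. Percentages of all genes that fell in these fits ran from 0% with the feeder covariate to 7.39% with a robust trend. Beside Dhcr7 and Srebf2, the larger counts held Fdps, Sqle, Lss, Mvd and Scd2, and without control replicate 2 Fads2. No member rose in any of the 18 fits, nor without 1 array (0 to 0). The member median was -0.11 with median scaling, where all genes had 0.18, and lay between -0.41 and -0.22 without 1 array. Chd8 kept its log2 change of -1.39 in the unmoderated test but not the call (adjusted p = 0.061). With the feeder covariate its change was -1.58 (adjusted p = 0.301). Without 1 array it lay between -1.47 and -1.29.

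Of 479 values of single members under other settings, 17 changed sign, none of them called. With median scaling these were Srebf1 (0.017), Scap (0.20), Insig2 (0.093), Nsdhl (0.013) and Fads1 (0.14). With array weights it was Srebf1 (0.16). With the feeder covariate they were Cyp51 (0.10), Lbr (0.17), Nsdhl (0.0086) and Hsd17b7 (-0.25). Without 1 array, Srebf1 ranged from -0.31 to 0.26, Scap from -0.17 to 0.10, Fads1 from -0.13 to 0.045 and Hsd17b7 from -0.015 to 0.24. The cause of these differences was not tested. No paired analysis was possible because the labels give no number that pairs control and shChd8 samples. The signal of Ggps1, Tm7sf2, Sc5d, Acaca and Fasn over background was too low to test them.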
